A study of Rattus norvegicus with 12 samples.

Results

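The glucocorticoid pathway was followed through 10 genes in failing and control rat hearts. They are the activating enzyme gene Hsd11b1, the receptor genes Nr3c1 and Nr3c2, and 7 genes that the receptor is known to induce, Tsc22d3, Fkbp5, Sgk1, Klf9, Klf15, Ddit4 and Errfi1. They were found as every probe set that the array annotation pairs with exactly 1 of these symbols, which gave 16 of the 31042 probe sets tested and 10 of 14217 genes. The choice of genes was made with their failing against control values known, so those differences are given as a description, with no test. Messenger RNA was measured on 1-colour 3' oligonucleotide arrays, 1 per heart, with 6 Failing and 6 Control hearts that the labels call biological replicates. The series is about heart failure in the spontaneously hypertensive rat, a rat line bred for high blood pressure whose hearts fail with age. The sources used here do not give the strain and treatment of the controls, or the age and sex of any animal. Groups that the protocol lists as given captopril, with or without butyrate, are not analysed here. The labels name the tissue as heart but not the chamber.

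Glucocorticoids (corticosterone in rats) act through the glucocorticoid receptor, a transcription factor that waits in the cytoplasm bound to chaperones and enters the nucleus when it binds hormone. 11-beta-hydroxysteroid dehydrogenase type 1, made from Hsd11b1, regenerates active hormone from its inert keto form inside cells. Cardiac muscle cells carry the mineralocorticoid receptor as well, which binds the same hormones, and in these cells the glucocorticoid receptor supports normal contraction while its loss is known to cause heart disease in mice.

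RefSeq promoters of assembly GRCr8 were held for 8 of the 10 genes, as 13 start sites, and the 250 bases upstream of each were searched on both strands. The palindromic glucocorticoid response element was in 0 of the 13 and in 0.374% of all 33469 promoters of that length. A single arm of it, TGTTCT, was also in 0 of 13, against 17.5% of all promoters. The cAMP response core TGACG lay in 4 of 13 (18.2% of all promoters) and the TATA sequence TATAAA in 4 of 13 (12.9%). The E-box CACGTG was in that of Klf15 (5.59% of all promoters), where it overlaps a TGACG match. The 4 promoters that hold TGACG are printed 5' to 3' in the direction of the gene, as examples of a match. Capitals mark matches to the cAMP response core, the TATA sequence or the E-box on either strand. A match is a description of letters, and its absence says only that the letters are not in this window.
Tsc22d3, chrX:109010035-109010284, strand -: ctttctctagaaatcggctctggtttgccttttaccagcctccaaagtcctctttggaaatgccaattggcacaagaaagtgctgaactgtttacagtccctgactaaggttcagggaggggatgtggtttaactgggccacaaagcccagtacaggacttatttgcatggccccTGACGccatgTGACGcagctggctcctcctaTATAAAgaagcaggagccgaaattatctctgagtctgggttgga
Errfi1, chr5:166606591-166606840, strand +: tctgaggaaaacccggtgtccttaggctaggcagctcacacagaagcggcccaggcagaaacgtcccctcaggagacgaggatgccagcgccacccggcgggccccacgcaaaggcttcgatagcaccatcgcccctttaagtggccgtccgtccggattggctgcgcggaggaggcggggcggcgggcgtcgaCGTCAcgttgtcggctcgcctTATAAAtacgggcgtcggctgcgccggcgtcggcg
Klf9, chr1:230126396-230126645, strand +: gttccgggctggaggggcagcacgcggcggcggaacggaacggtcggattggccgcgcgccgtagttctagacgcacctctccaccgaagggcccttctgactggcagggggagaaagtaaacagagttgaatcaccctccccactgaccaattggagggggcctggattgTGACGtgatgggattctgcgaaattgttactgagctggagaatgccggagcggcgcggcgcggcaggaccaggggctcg
Klf15, chr4:124522765-124523014, strand +: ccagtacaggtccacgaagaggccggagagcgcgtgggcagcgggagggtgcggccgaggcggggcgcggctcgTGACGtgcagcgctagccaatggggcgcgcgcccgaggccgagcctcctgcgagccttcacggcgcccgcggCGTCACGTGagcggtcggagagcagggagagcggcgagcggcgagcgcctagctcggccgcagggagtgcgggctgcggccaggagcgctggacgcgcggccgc

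The trimmed mean intensity was the same on all arrays, from 500.19 to 500.23, and a change shared by most genes is therefore invisible. Levels are log2 intensities, on which a difference of 1 is a doubling, and levels of different probe sets cannot be set against each other. The defining cardiomyocyte markers Tnnt2, Tnni3, Mb, Pln, Ryr2 and Myh6 were bright in every heart, none below 12.91. Over all 14217 genes limma called 0 at an adjusted p of 0.05, although 19.1% had an unadjusted p under 0.05 (9.12% higher and 9.95% lower in failing hearts). Among the 7109 brighter genes, those with a mean level of at least 8.21, limma called 10.1%, of which 5.4% of the genes tested were higher and 4.73% lower in failing hearts. For genes outside the 10, "rose" and "fell" stand for a call among these brighter genes. All 10 glucocorticoid genes lay among the brighter genes. The number of arrays limits the precision, and in whole tissue fewer cells of a type and less RNA per cell cannot be told apart.

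**Figure D1:**
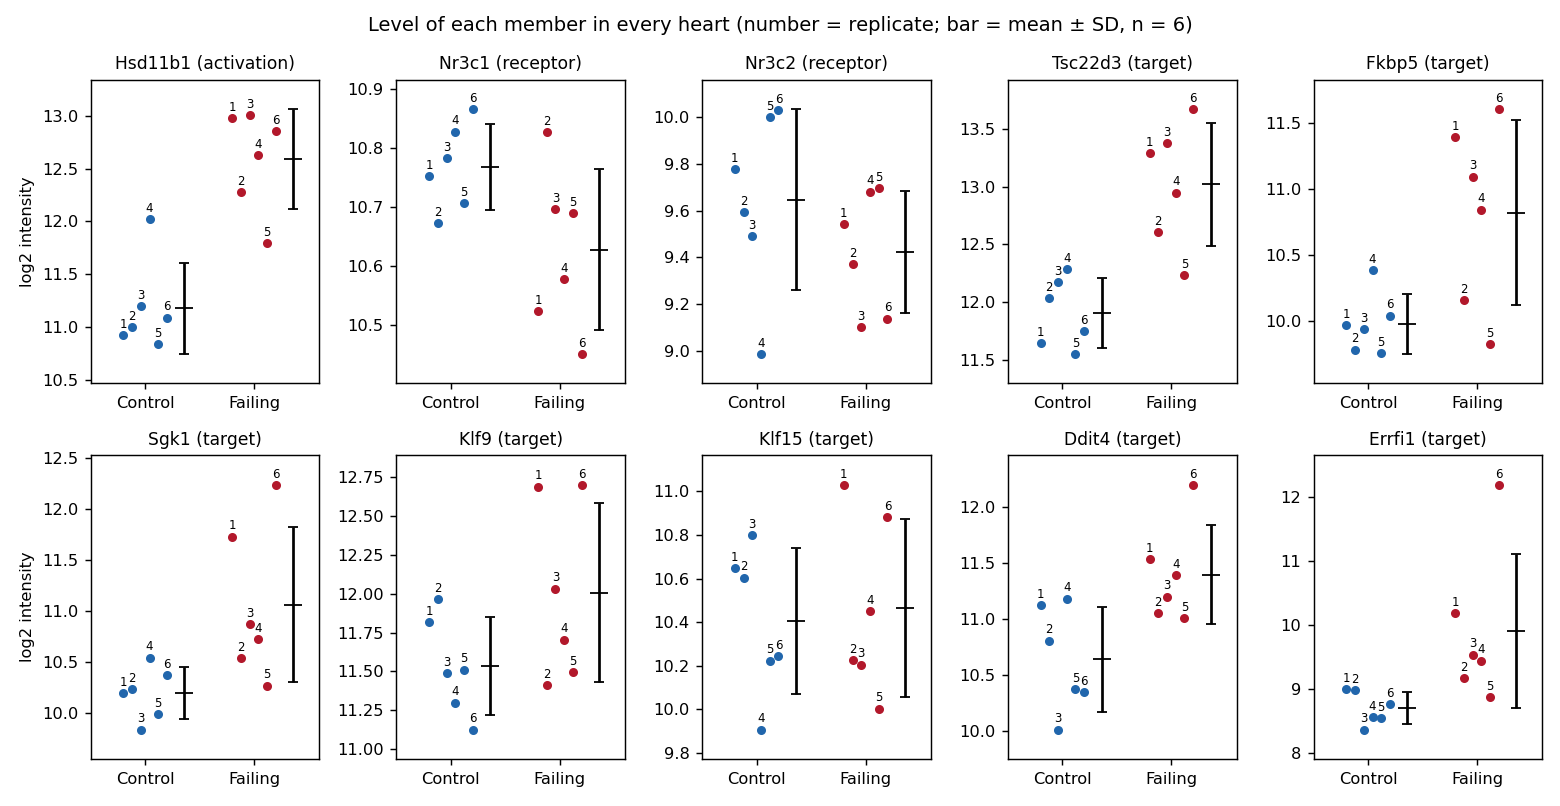
Level of each of the 10 genes (log2 intensity, vertical axis, its own range in each panel) in 6 Control and 6 Failing hearts, 1 numbered point per heart, with the group mean and SD beside them. Failing replicate 6 is the highest heart for 6 of the 7 targets and failing replicate 5 the lowest failing heart for 6 of the 7.

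Hsd11b1 had the largest difference of the 10 genes. It ran from 11.79 over a median of 12.74 to 13.00 in failing hearts, and from 10.84 over a median of 11.05 to 12.02 in control hearts. In 5 of 6 failing hearts it exceeded every control heart, and failing replicate 5 was the exception. Control replicate 4 stood alone among the controls, at 12.02 against 10.84 to 11.20 in the other 5. Means were 12.59 ± 0.47 and 11.18 ± 0.43 (SD, n = 6 each), a difference of 1.41 ± 0.25 (log2, limma SE) or 2.66-fold, with a 95% interval from 0.86 to 1.96. The difference lay between 1.33 and 1.58 whichever single heart was left out.

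The enzyme is known from fibroblasts, fat and liver, so markers of other cells are given beside it. Summed intensities of 8 fibroblast markers ran from 47816 to 93104 in failing and from 38161 to 60560 in control hearts, all 8 lay above 0 (median difference 0.46), and 1 of the 8 rose (Dcn, the proteoglycan decorin). Failing replicate 3 had both the most Hsd11b1 (13.00) and the highest fibroblast sum, and failing replicate 5, lowest of the failing hearts for Hsd11b1, had the second lowest failing sum (56769). Control replicate 4, the control heart with the most Hsd11b1, had the lowest fibroblast sum and the lowest cardiomyocyte sum of all 12 hearts (161065, against 231309 to 264109 in the other controls and 162441 to 259552 in failing hearts). Failing replicate 1, at 12.98 for Hsd11b1, had the lowest fibroblast sum of the failing hearts. Of 5 macrophage markers among the brighter genes 3 rose, beside 5.4% of all brighter genes, and 7 of the 8 measured lay above 0. The exception was Adgre1, below the level of the brighter genes (-0.58 ± 0.47). Sums of all 8 ran from 5919 to 15497 in failing and from 4458 to 7992 in control hearts. Control replicate 4 was the highest control (7992), failing replicate 3 the highest failing heart and failing replicate 5 the lowest failing heart. Failing replicate 1, at 12.98 for Hsd11b1, had the second lowest failing macrophage sum (7936). Failing replicate 2, at 12.28 for Hsd11b1, had a higher macrophage sum (11675) than failing replicate 6 (9235), at 12.85. Of the 6 cardiomyocyte markers 0 lay above 0 (median difference -0.11), and Myh6 differed by -1.03 ± 0.35 (limma adjusted p = 0.0533). The part of fibroblasts, macrophages and cardiomyocytes in the Hsd11b1 difference was not tested. Smooth muscle markers had sums from 3795 to 8003 in failing and from 2550 to 4073 in control hearts (1 of 4 brighter ones rose), and 0 of 4 measured lymphocyte markers lay among the brighter genes. Of 5 measured fat cell markers 1 lay among the brighter genes, Cfd, the protease adipsin (8.98 in failing and 8.25 in control hearts, 0.73 ± 0.32, not called). Of these 5 markers 3 lay above 0 (median difference 0.26). Their sums ran from 382.7 to 1008.4 in failing and from 295.5 to 730.4 in control hearts. The lipid droplet gene Plin1, dim at a mean level of 5.05, differed by -1.80 ± 0.53 (limma adjusted p = 0.113 over all genes). Of the 5, 2 were below an intensity of 50 on every array.

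The receptor genes differed less between the groups. Nr3c1, the glucocorticoid receptor, varied little, from 10.45 to 10.83 in failing hearts (median 10.63) and from 10.67 to 10.87 in control hearts (median 10.77). The groups overlapped. The difference was -0.14 ± 0.09 (95% interval from -0.33 to 0.05). A rise of more than 0.05 or a fall of more than 0.33 lies outside the interval of this probe set. The lowest Nr3c1 levels of all hearts, 10.45 and 10.52, were those of failing replicates 6 and 1, which were the top 2 failing hearts for most target genes. A dimmer Nr3c1 probe set, from 6.51 to 7.83 in failing and from 6.15 to 7.85 in control hearts, went the other way by 0.23 ± 0.31. Its 95% interval, from -0.44 to 0.90, is wider and reaches past both of those bounds. The mean of both probe sets gave 0.046. In the dimmer one failing replicates 6 and 1 were at 7.65 and 6.94, and failing replicate 4 was the lowest failing heart. Nr3c2, the mineralocorticoid receptor, ran from 9.10 to 9.70 in failing hearts (median 9.46) and from 8.99 to 10.03 in control hearts (median 9.69). Its difference was -0.22 ± 0.19, and control replicate 4 was the lowest of all 12 hearts, so that without it the difference was -0.36.

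Of the 7 target genes, Tsc22d3, which encodes the leucine zipper protein GILZ, was set apart most clearly by group. It ran from 12.23 over a median of 13.12 to 13.67 in failing hearts and from 11.55 over a median of 11.89 to 12.28 in control hearts. Only failing replicate 5 overlapped the controls. The difference was 1.11 ± 0.24, or 2.16-fold (95% interval from 0.59 to 1.64). Fkbp5, an immunophilin that lowers the receptor's affinity for hormone and is induced by it, ran from 9.82 over 10.97 to 11.60 in failing and from 9.76 over 9.95 to 10.38 in control hearts, and 4 failing hearts exceeded every control heart. Its difference was 0.84 ± 0.29, or 1.79-fold. Failing replicates 2 and 5 lay within the control range.

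Sgk1, a kinase that both receptors induce and that acts on ion channels, ran from 10.27 over 10.80 to 12.23 in failing and from 9.84 over 10.22 to 10.54 in control hearts (0.86 ± 0.31, 1.82-fold). Ddit4 (REDD1), which restrains the growth kinase complex mTORC1, ran from 11.005 over 11.29 to 12.20 in failing and from 10.01 over 10.59 to 11.18 in control hearts (0.76 ± 0.25, 1.69-fold). For both genes 4 of 6 failing hearts exceeded every control heart. Errfi1 (MIG6), an inhibitor of the epidermal growth factor receptor, ran from 8.87 over 9.48 to 12.18 in failing and from 8.36 over 8.66 to 8.99 in control hearts (1.20 ± 0.47, 2.29-fold). For Errfi1 5 of 6 failing hearts exceeded every control heart. Its highest value was that of failing replicate 6, the next being 10.17 in failing replicate 1. Without replicate 6 the difference was 0.74 ± 0.22.

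Among the 7 targets, the Krüppel-like factor genes separated the groups least. Klf9, a transcription factor that rises quickly after hormone, ran from 11.41 over 11.87 to 12.70 in failing and from 11.13 over 11.50 to 11.96 in control hearts, and 3 failing hearts exceeded every control heart. Its difference was 0.47 ± 0.26 (95% interval from -0.09 to 1.03). Klf15, a factor of cardiac amino acid and lipid metabolism, ran from 10.004 over 10.34 to 11.03 in failing and from 9.91 over 10.42 to 10.80 in control hearts. Its difference was 0.062 ± 0.21 (95% interval from -0.40 to 0.52). Leaving out single hearts moved it between -0.05 and 0.15.

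In 0 of the 10 genes were the groups free of overlap, against 3.24% of the brighter genes (2.11% with failing hearts above and 1.13% with failing hearts below). Hsd11b1 and Tsc22d3 were among the brighter genes called higher by limma, 2 of 10 beside 5.4% of all brighter genes, and 0 of 10 were called lower. As the genes were chosen on this contrast, nothing is read from that count.

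The further probe sets of Fkbp5 and Klf15 pointed the same way as the ones used. The other Fkbp5 probe set, at a mean of 9.20, differed by 1.84 ± 0.55, with control hearts spread from 6.68 to 9.96, and the other brighter Klf15 probe set by 0.18 ± 0.19. Klf9 had 2 dim probe sets that disagreed, at 1.98 ± 0.75 (mean level 6.11) and -0.74 ± 0.72 (mean level 5.13). Only the first excluded 0 from its interval, and single hearts ranged from 3.82 to 8.13 in it.

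**Figure D2:**
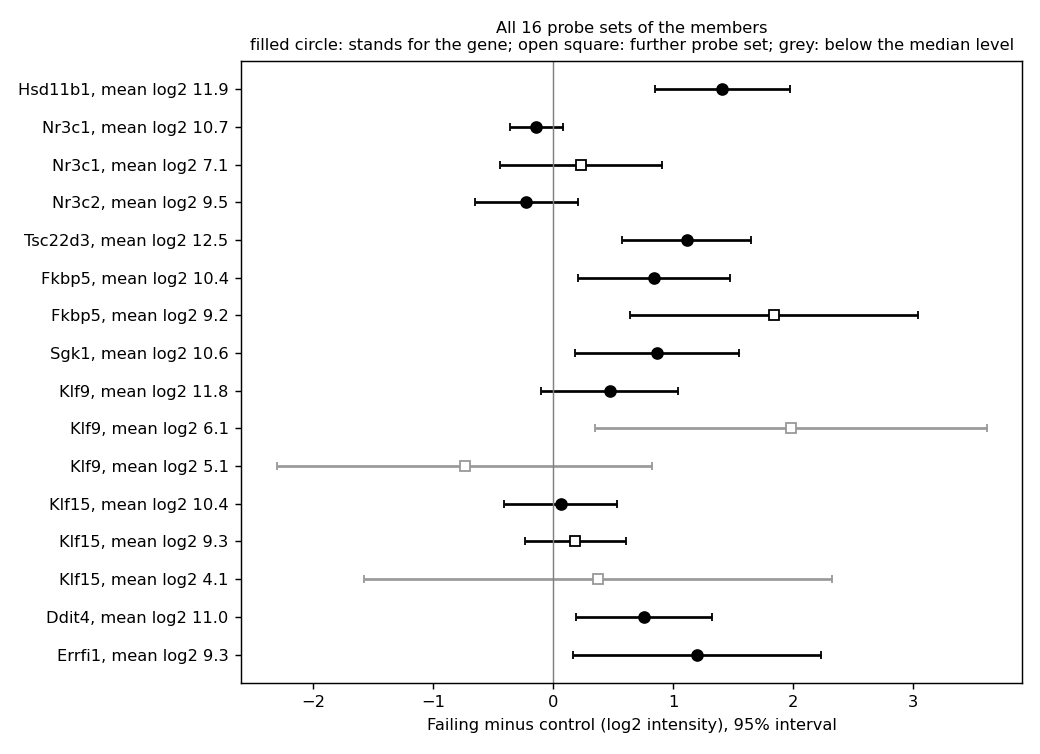
Failing minus control difference (log2 intensity, horizontal axis) with its 95% interval for all 16 probe sets, n = 6 hearts per group. Filled circles stand for the gene, open squares are further probe sets, and grey marks the 3 probe sets below the median level of all probe sets, whose intervals are the widest.

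The failing hearts kept much the same order from gene to gene. Over Hsd11b1 and the 7 targets, failing replicate 6 was the highest failing heart for 6 of 8 genes and failing replicate 5 the lowest for 7 of 8. Failing replicates 1 and 6 were each among the top 2 for 7 of 8 genes, and failing replicates 2 and 5 among the bottom 2 for 7 and 8 of 8. In controls, replicate 4 was highest for 5 of 8 genes and lowest for Klf15, and no control heart was lowest for more than 3. Without failing replicates 1 and 6, a choice made after seeing these values, the differences were 1.25 for Hsd11b1, 0.88 for Tsc22d3, 0.50 for Fkbp5, 0.52 for Ddit4, 0.40 for Sgk1 and 0.55 for Errfi1. Klf9 then differed by 0.13 and Klf15 by -0.18. Some array and marker values also set these hearts apart. The median intensity was 124 in failing replicate 1 and 123.8 in failing replicate 6, against 133.5 to 136.3 in the other failing hearts. The share of probe sets below an intensity of 50 was 31.4% and 31.7%, the highest of the failing hearts, and 28.6% in failing replicate 5, the lowest. Their limma array weights, 0.65 and 0.74, were the lowest of the failing hearts, while control replicate 4 had the lowest of all hearts (0.41). Summed intensities of 5 endothelial markers were highest in failing replicates 1 (15167) and 6 (13568) and, among failing hearts, lowest in failing replicate 5 (10079). Between the groups these markers disagreed, as 3 of the 5 lay above 0 (median difference 0.13). Among them Vwf rose by 1.10 ± 0.24, while Tie1 differed by -0.36 ± 0.14. The RNA quality index is the 3' minus 5' difference of the Gapdh and beta-actin control probe sets (log2). It was 0.70 in failing replicate 1, against 0.50 to 0.53 in the other failing hearts. In failing replicates 6 and 5, the top and bottom hearts, it was 0.53. The part of the array values and of endothelial cells in this order was not tested.

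**Figure D3:**
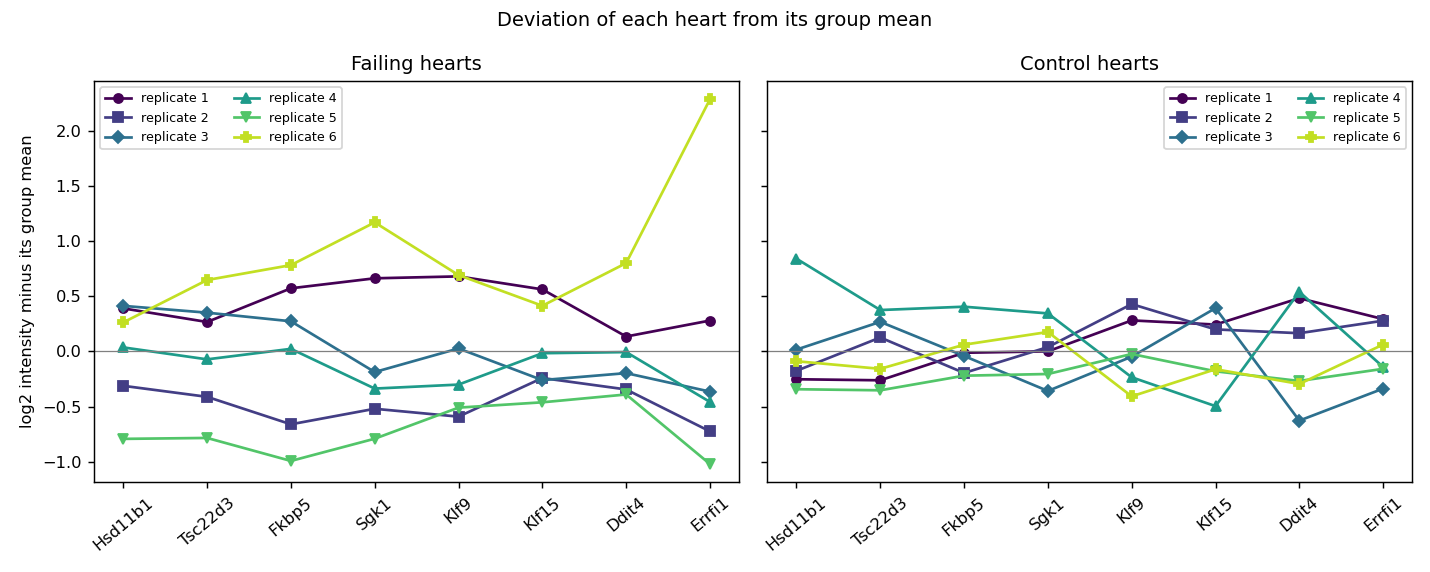
Deviation of each heart from its group mean (log2 intensity, vertical axis) for Hsd11b1 and the 7 targets (horizontal axis), 1 line per heart, failing hearts left and control hearts right. In failing hearts the lines of replicates 1 and 6 stay above 0 and those of replicates 2 and 5 below 0 across all 8 genes, whereas control lines cross.

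Relations among these 8 genes within a group do not use the difference between the group means. They do use the same heart values, which were known when the genes were chosen, so they are not independent of that choice. All 28 pairs were compared across the 6 failing and across the 6 control hearts, 56 relations in all, by an exact permutation test over all 720 pairings (two-sided). In failing hearts 28 of 28 pairs correlated positively, with a median Pearson r of 0.83 (range from 0.56 to 0.98) and a median Spearman rho of 0.89. The median over all pairs of brighter genes in the same hearts was 0.0041. An r of at least 0.9 was reached by 9 of 28 pairs, against 1.34% of all pairs of brighter genes. In control hearts 16 of 28 pairs were positive, the median r was 0.21, and 1 of 28 pairs reached 0.9, against 1.89% of all pairs. Whether the groups differ in this was not tested. The pairs share hearts and genes, so they are not independent of each other.

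After adjustment over the 56 relations, 5 pairs passed in failing hearts, all at an adjusted p of 0.0467 by the exact permutation test, and 0 passed in control hearts, where 2 had an unadjusted p under 0.05. Before adjustment 22 of 28 pairs in failing hearts had an exact p under 0.05. Sgk1 and Errfi1 had r = 0.94 and ranked the 6 failing hearts identically (exact permutation p = 0.00139 for r, the smallest possible with 6 hearts, and 0.00278 for rho). Tsc22d3 and Fkbp5 had r = 0.98, Ddit4 and Errfi1 0.98, Sgk1 and Klf9 0.96, and Klf9 and Errfi1 0.83 (exact permutation p from 0.00278 to 0.00417), each with a rho of 0.94 (exact permutation p = 0.0167). Without the 2 hearts farthest from the median of the first gene, the r of these 5 pairs lay between 0.80 and 0.99 over 4 hearts. Over all 28 pairs the median was then 0.72 and 27 were positive, the exception being Hsd11b1 with Ddit4 (-0.09). With Spearman's rho 0 pairs passed (lowest adjusted p = 0.0519, exact permutation test). The count was 8 pairs after centring each array on its median, and 0 with the mean of all probe sets of a gene.

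Hsd11b1 correlated most closely with Tsc22d3 and Fkbp5 in both groups, though not past adjustment. In failing hearts its r was 0.93 with Tsc22d3 and 0.93 with Fkbp5 (exact permutation p = 0.00694 and 0.0111, adjusted 0.0556 and 0.0778), with rho of 0.83 and 0.77 (exact permutation p = 0.0583 and 0.103), and lower with Errfi1 and Ddit4, at 0.56 and 0.57. Without failing replicates 2 and 5 the first pair of values became 0.57 and 0.51. In control hearts its r was 0.77 with Tsc22d3 and 0.92 with Fkbp5 (exact permutation p = 0.0125 and 0.0264, adjusted 0.0778 and 0.0907), with rho of 0.94 and 0.71 (exact permutation p = 0.0167 and 0.136). Without control replicates 4 and 5 these were 0.69 and 0.21, so the relation with Fkbp5 in control hearts rests on those hearts. Klf15 correlated with Sgk1 at 0.91 in failing hearts and at -0.70 in control hearts, and neither passed (adjusted p = 0.0907 and 0.238, exact permutation test).

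**Figure D4:**
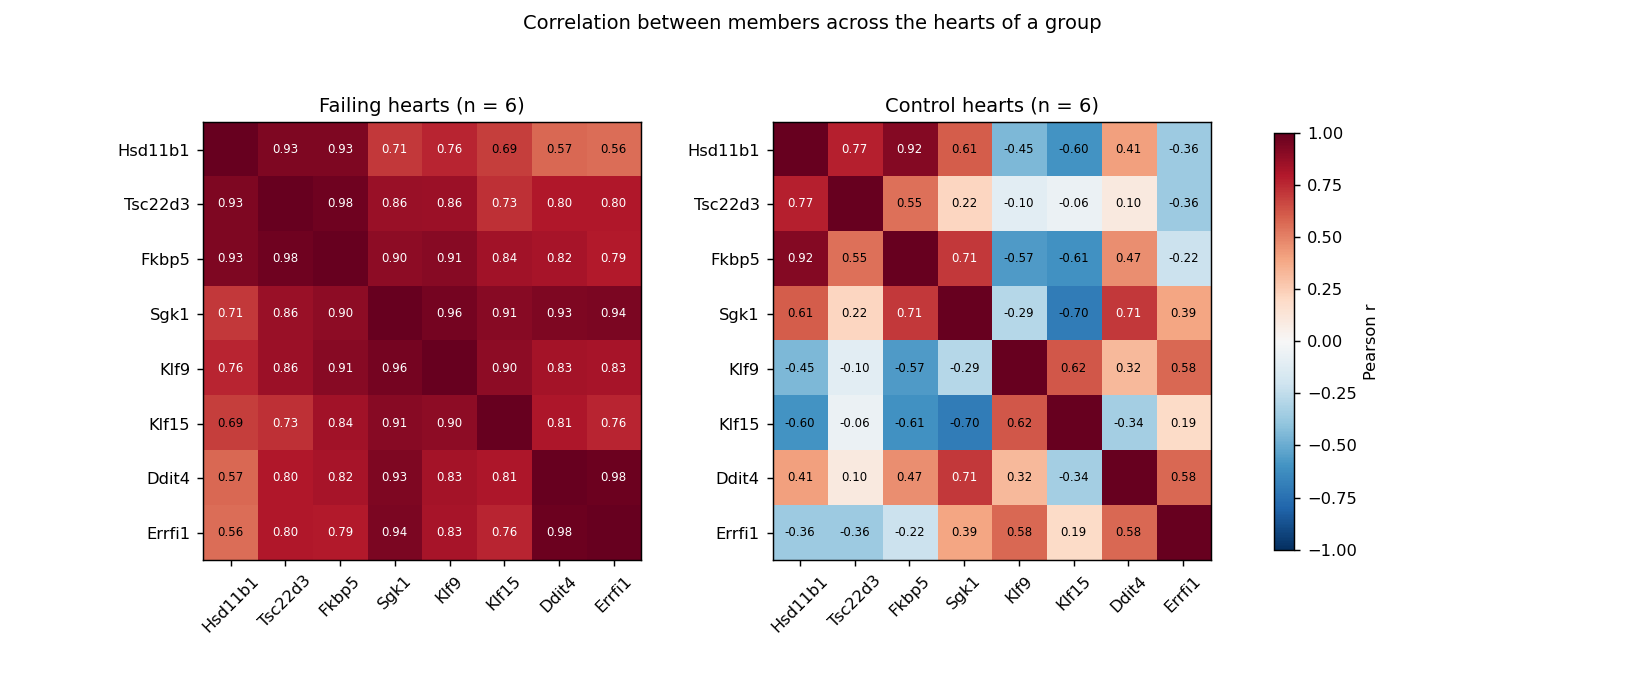
Pearson r between every pair of Hsd11b1 and the 7 targets across the 6 failing hearts (left) and the 6 control hearts (right), with the colour scale from -1 to 1. All 28 failing pairs are positive, from 0.56 to 0.98, and the control pairs range from -0.70 to 0.92.

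Further genes of the pathway were taken from 8 lists, 113 genes of which 103 were measured and 67 lay among the brighter genes. Of these 67, 11 rose and 2 fell by limma among the brighter genes, beside 5.4% and 4.73% of all brighter genes. Over all genes 0 passed. Of the 103, 17 were higher and 7 lower at an unadjusted p under 0.05, beside 9.12% and 9.95% of all genes. Leaving out single hearts moved these 2 counts of calls from 1 to 13 and from 0 to 7, and without failing replicates 1 and 6 together they were 2 and 0.

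The list of other genes known to be induced by glucocorticoids held most of the rises. It was also the longest list, with 27 of the 67 listed brighter genes. As it was chosen with earlier results of these data known, its counts are a description. Of its 27 brighter members 8 rose and 0 fell, beside 5.4% and 4.73% of all brighter genes. Above 0 lay 20 of 27, against 46% of all brighter genes. Its median difference was 0.50, beside -0.025 for all brighter genes. Cebpd, a transcription factor of the acute phase response, rose by 1.49 ± 0.26 (limma adjusted p = 0.00988), with every failing heart (9.91 to 11.06) above every control heart (8.34 to 9.72), as in 2.11% of brighter genes. The related factor Cebpb rose by 0.94 ± 0.29 (adjusted p = 0.0383), the NF-kappa-B inhibitor Nfkbia by 0.92 ± 0.30 (adjusted p = 0.0494), and Rgs2, which damps G protein signalling, by 0.92 ± 0.23 (adjusted p = 0.0238, limma). Also risen, and named after their values were seen, were annexin A1 (Anxa1, 0.85), Lcn2 (0.76), glutamine synthetase (Glul, 0.55) and Foxo3 (0.50). The count of 8 became 1 without failing replicate 3 or control replicate 1 or 6, 2 without control replicate 2, 3 without failing replicate 1, 4 or 6, and 4 without control replicate 3 or 5. It was 4 with the replicate number as a term and 2 without failing replicates 1 and 6 together. Of the 8, Cebpd was called whichever single heart was left out (adjusted p from 0.00204 to 0.0342). Dusp1, Pdk4 and Tgm2 are induced targets too, and differed by -0.16 ± 0.20, 0.074 ± 0.35 and -0.020 ± 0.14. Their other bright probe sets lay higher, at 0.10 ± 0.20, 0.71 ± 0.46 and 0.48 ± 0.20, none of them called. Per1, a clock gene that hormone induces directly, was not among the brighter genes, at 8.44 ± 0.76 in failing and 7.39 ± 1.42 in control hearts.

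Among partners of the receptor, 1 of 10 chaperones and 2 of 8 coregulators were called, beside 10.1% of all brighter genes in either direction. Of 10 measured chaperones of the receptor complex 1 fell and 0 rose. Fkbp4, the immunophilin that replaces Fkbp5 on the receptor as it moves to the nucleus, averaged 9.81 ± 0.48 in failing hearts against 10.69 ± 0.32 in controls, a fall of 0.88 ± 0.23 (limma adjusted p = 0.0249 among the brighter genes). It was no longer called when failing replicate 3 or 6, or control replicate 1, 3 or 6, was left out (adjusted p up to 0.0617). The groups overlapped, from 9.21 to 10.48 against 10.24 to 11.12. Of 8 brighter coregulators 1 rose and 1 fell. The coactivator Crebbp rose by 0.43 ± 0.12 (adjusted p = 0.0352, limma) on 1 probe set and differed by -0.18 ± 0.13 on another brighter one. The mediator subunit Med1 fell by 0.49 ± 0.16 (adjusted p = 0.0445, limma). Crebbp stayed called only when the heart left out was failing replicate 2 or 5 or control replicate 4 (otherwise up to 0.0763), and Med1 only when it was failing replicate 5 or control replicate 4 (otherwise up to 0.0974).

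Genes of hormone synthesis and inactivation were mostly dim. Of 9 measured genes of steroid handling 1 lay among the brighter genes, Cyp11a1, the side-chain cleavage enzyme of steroid synthesis, at 8.52 ± 0.32 in failing and 9.17 ± 0.56 in control hearts (adjusted p = 0.0832, limma). Hsd11b2, which inactivates the hormone in aldosterone target tissues, was dim and varied widely, with a difference of 0.19 ± 0.74. H6pd, which supplies the cofactor of the Hsd11b1 enzyme, differed by 0.36 ± 0.20 (adjusted p = 0.356 over all genes, limma).

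Among 13 inflammatory genes that glucocorticoids are known to hold down, 4 were among the brighter genes. Of these 1 rose and 0 fell, beside 5.4% and 4.73% of all brighter genes. At an unadjusted p under 0.05, 4 of the 13 were higher, against 9.12% of all genes. The called gene was the adhesion molecule Icam1, at 9.46 ± 0.57 in failing and 8.67 ± 0.15 in control hearts (0.80 ± 0.23, limma adjusted p = 0.034), a call kept only when the heart left out was failing replicate 1 or 5 or control replicate 4 (otherwise adjusted p up to 0.0762). Ptgs2, the inducible cyclooxygenase, had a larger difference but lay below the level of the brighter genes, at 8.67 ± 0.99 in failing and 6.73 ± 0.77 in control hearts (1.94 ± 0.48, limma adjusted p = 0.0863 over all genes). It was named after its values were seen, and 5 of 6 failing hearts exceeded every control heart. With every probe set as its own row, the brighter ones are those with a mean level of at least 6.94, a lower cut than for genes. Ptgs2, at a mean of 7.70, lay among them with an adjusted p of 0.035, where that of Icam1 was 0.0544 (limma). Of 6 measured aldosterone targets outside the 10 genes, 2 lay among the brighter genes and 0 of these were called. The smallest p was that of the sodium channel subunit Scnn1g, a dim gene that differed by -0.78 ± 0.50. Of 5 brighter genes known to follow Klf15, 0 lay above 0, against 46% of all brighter genes, and 0 were called. Kcnip2, a potassium channel subunit, had the smallest p (-0.53 ± 0.18, limma adjusted p = 0.0566), while another bright probe set of it differed by -0.15 ± 0.24, and up to 3 of the list fell when single hearts were left out.

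As several of the 10 genes vary with the time of day, the clock genes were counted too. Of 10 brighter clock genes 1 rose and 0 fell, beside 5.4% and 4.73% of all brighter genes. Per2, a clock repressor that glucocorticoids also induce, averaged 9.56 ± 0.38 in failing hearts against 8.72 ± 0.54 in controls (0.84 ± 0.26, limma adjusted p = 0.039), and its call was kept only when the heart left out was failing replicate 2 or 5 or control replicate 2, 3 or 4 (otherwise adjusted p up to 0.0899). Nr1d1, Dbp and Bmal1, whose messages swing widely over the day, differed by 0.22 ± 0.37, -0.35 ± 0.38 and 0.56 ± 0.39. Control Bmal1 was 6.99, 7.47 and 7.05 in replicates 1 to 3 but 8.46, 8.85 and 9.34 in replicates 4 to 6. Its SD was 1.00 in control and 0.24 in failing hearts. In the same order Dbp was 9.29, 9.60 and 9.34, then 8.08, 8.99 and 7.55. Nr1d1 was not split (8.73, 8.94 and 7.85, then 8.88, 9.94 and 7.99). Of the 10 genes only Klf15 was split without overlap (10.65, 10.60 and 10.80, then 9.91, 10.22 and 10.24). The share of all brighter genes split this way was not counted, so nothing is read from the Klf15 split. The part of the time of day was not tested. The time of day at which the hearts were taken is not given in the sources used here.

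**Figure D5:**
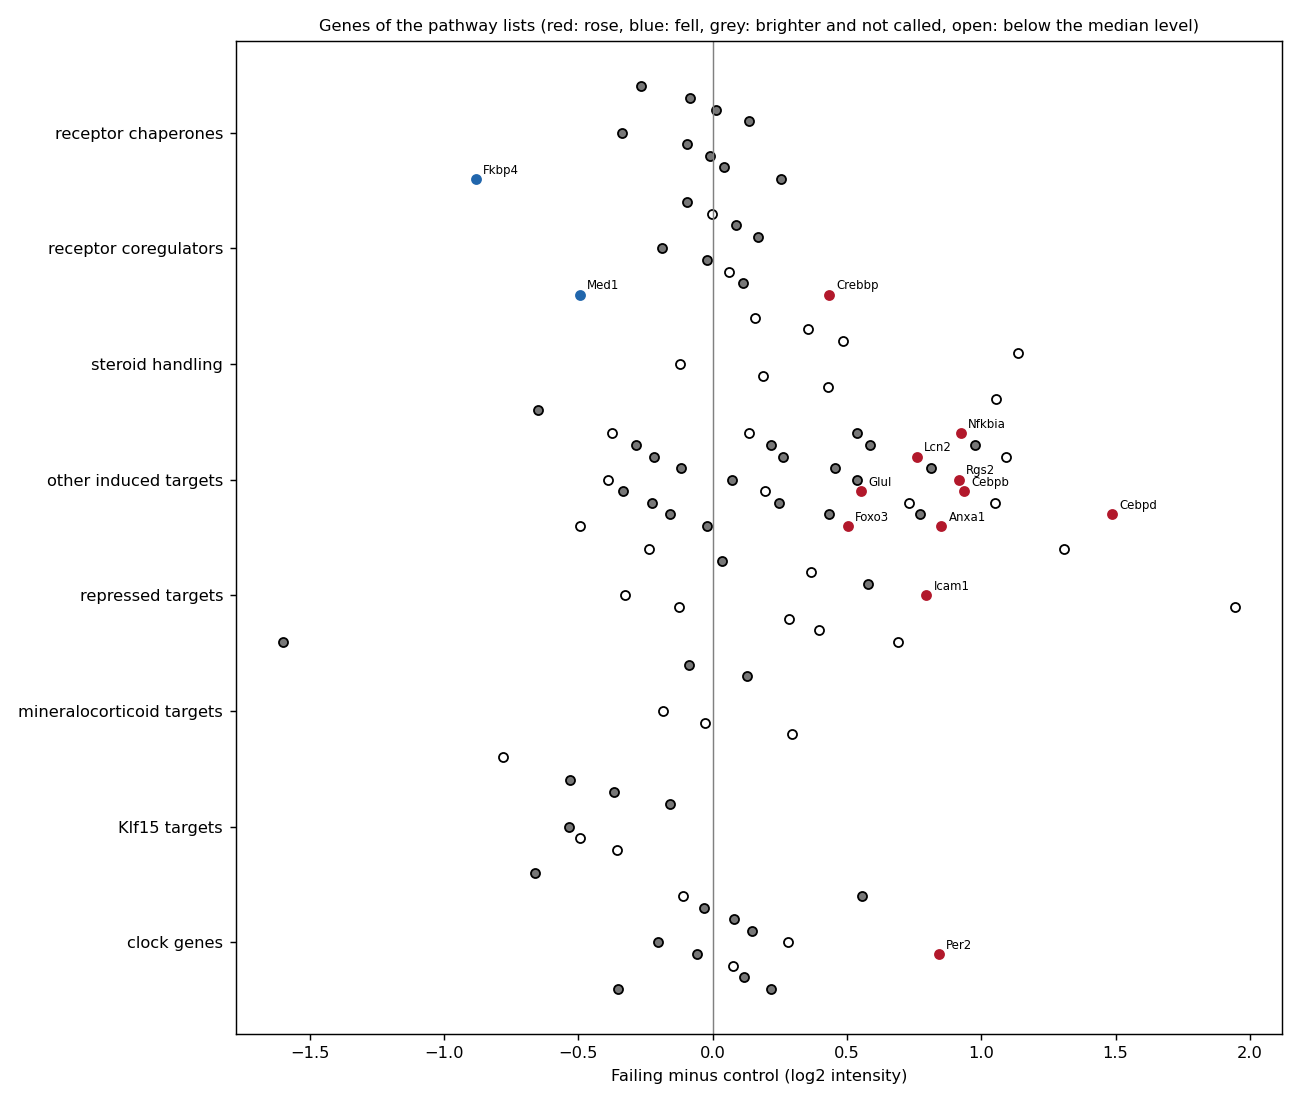
Failing minus control difference (log2 intensity, horizontal axis) of each measured gene in the 8 pathway lists, 1 point per gene. Red points rose and blue points fell by limma among the brighter genes, grey points are brighter genes that were not called, and open points lie below the median level. The 8 red points of the other induced targets run from 0.50 to 1.49.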

How the data were processed

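The authors deposited 1 table of linear intensity values, 31099 probe sets on 12 arrays, with 0 columns that belong to no sample here. RMA is named, without a version, in the submitters' processing notes, while linear values with a common trimmed mean look like a global scaling, so the summary method stays unknown. No detection calls, batches or genome build are given in the sources used here.

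The log2 of each deposited intensity was taken without an offset, 57 control probe sets were removed, and the probe set with the highest mean stood for each gene. Groups came from the sample titles. limma 3.58.1 in R 4.3.3 (lmFit, eBayes, group as the only term, Benjamini-Hochberg, threshold 0.05, two-sided) was fitted over all genes and over the brighter genes, and over all probe sets for further probe sets. SEs are limma's moderated SEs, from the fit over all genes or, for further probe sets, over all probe sets. P-values measure the spread between these hearts. The code was tested on simulated data.

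The 10 genes, the lists and the use of the brighter genes were chosen with earlier results of these data known. From each list up to 4 called genes per direction are named, or else the gene with the smallest p. Outside this rule, and after their values were seen, the 4 other called induced genes, Ptgs2 and a few uncalled genes are named. Alternatives were other normalizations, an offset of 32, all probe sets, array weights, an RNA quality covariate, an intensity trend, other levels for brighter genes, the replicate number as a term, and leaving out hearts. Figures were drawn with matplotlib 3.10.9.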

Additional observations from a re-analysis of the deposited data

Results flagged for a closer look

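Hsd11b1 in control replicate 4 stood apart from the other 5 control hearts, at 12.02 against 10.84 to 11.20 (log2). Its gap to the nearest control was 0.697 of the range of the group, above Dixon's 95% critical value for 6 samples. Of 32 groups of 6 values tested this way (16 probe sets in 2 groups), 1 was singled out, and chance singles out about 1 in 20. Without this heart the difference between failing and control hearts was 1.58. The array of control replicate 4 had the highest median intensity of all hearts (144.2). It also had the lowest limma array weight (0.41) and the lowest RNA quality index (0.36). The part of these array values was not tested.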

How the results depend on the processing

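The differences of the 10 genes moved by less than the SD between hearts in 199 of 200 alternative settings, the exception being Nr3c1 with the mean of all probe sets (0.046). Without single hearts the counts of pathway genes called over all genes ran from 0 to 7 higher and from 0 to 3 lower, and among the brighter genes from 1 to 13 higher and from 0 to 7 lower. Over all genes, where the count was 0 higher and 0 lower, an offset of 32 gave 1 higher, array weights 6 higher and 1 lower, and an intensity trend 7 higher and 1 lower. Among the brighter genes, where the counts were 11 and 2, the mean of all probe sets gave 5 and 1, every probe set as its own row 5 and 1, brighter genes from the 25th percentile up 3 and 0, and from the 75th percentile up 5 higher. Array weights gave 7 lower, and leaving out failing replicates 1 and 6 together 2 and 0. The replicate block gave 4 higher and 0 lower. Same-numbered hearts did not deviate together (r from -0.118 to 0.258, 2 of 6 closest to their own number), so the numbers were not taken to pair the hearts. Of pairs that varied together in failing hearts, 5 became 8 after median centring and 0 with the mean of all probe sets. The causes of these shifts were not tested. Dim probe sets limit what can be said of hormone synthesis genes.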

Other observations

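Genes whose pattern was most like that of each of the 10 were sought among the 7109 brighter genes, by Pearson r over all 12 hearts after each value was centred on its group mean. These r are descriptive, as the best among so many genes. Hsd11b1 was closest to Ece1, the endothelin-converting enzyme (r = 0.96), and Tsc22d3 to Rassf1 and Nucb2 (0.96 for both). Sgk1 was closest to Ngdn and to Sox17, a transcription factor of arterial endothelium (0.96 for both), and Fkbp5 to Tinagl1 (0.95). Errfi1 was closest to Mtmr10 (0.96), Klf9 to the antioxidant enzyme gene Nqo1 (0.95), Klf15 to Vapa (0.93) and Ddit4 to the matrix protease gene Adamts5 (0.92). Klf15 was next closest to Pnpla2, the triglyceride lipase of fat breakdown (0.92). The receptor gene Nr3c1 was closest to Thg1l (0.92) and Nr3c2 to Nudt12 (0.96). Of these neighbours, Ece1 (0.56 ± 0.18, limma adjusted p = 0.0452) and Nucb2 (1.12 ± 0.24, adjusted p = 0.0159) rose in failing hearts among the brighter genes, and Nudt12 fell by 0.73 ± 0.18 (adjusted p = 0.0216).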
